A study of Mus musculus with 30 samples.

Results

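The aminoacyl-tRNA synthetases are the enzymes that join each amino acid to its transfer RNA (tRNA). The 35 genes described here were chosen by name: 19 cytosolic synthetases, and 16 mitochondrial ones, whose symbols end in 2. The choice was made with earlier results of these data known. All 35 were found among the 29861 genes of the deposited table, all are protein-coding, and all 35 passed the filter on low values. Methionyl-tRNA synthetase of the cytosol (Mars) was not in the set and is given with the partner genes. RNA was sequenced from CCG-HTA-1, a primary tail fibroblast line from UMHet3 mice, a genetically mixed stock, at passage 4. The cells grew in high-glucose DMEM without pyruvate at ambient oxygen and were collected 48 hours after a compound or its solvent was added. The groups were Antimycin A and Dihydrorotenone, which block the respiratory chain, Diphenyleneiodonium Cl, an inhibitor of flavoenzymes, Cardamonin, a plant chalcone, Clofilium tosylate, which blocks potassium channels, Podofilox, which stops tubulin from polymerising, the compounds labelled BerberineA and AEG 3482, and DMSO, the solvent control. Each compound had 3 libraries and DMSO had 6, although the series text counts 5. All donor mice were aged 5 to 8 weeks, except that the label of Dihydrorotenone replicate 1 gives 8 to 11 weeks. Doses are not given in the labels. Because every library comes from 1 line, p-values measure the spread between these libraries, which may be technical, and not between animals.

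Values are transcripts per 1000000 transcripts (TPM), so each is relative to the other RNA of its library, and sequencing depth is unknown. The number of genes at 1 TPM or more was 12229 to 12700 per library, and replicates within a group correlated at 0.986 to 0.993 across genes. The library numbers ran consecutively within each group, so group and library batch cannot be told apart. All 8 fibroblast markers examined were present, with a summed level of 7223 to 8393 TPM in DMSO, while the muscle markers summed to at most 0.128 TPM, with Myod1 at 0, and the epithelial markers to at most 2.43 TPM, with Krt5 at 0. The fibroblast sum was 2405 to 3460 TPM with Cardamonin, 4170 to 4826 TPM with Antimycin A, 7371 to 8443 TPM with AEG 3482 and 5368 to 7164 TPM with the other 5 compounds. The 5 leukocyte markers summed to 12.4 to 15.995 TPM in DMSO and 2.98 to 3.56 TPM with Cardamonin, the 4 endothelial markers to 5.42 to 8.71 and 1.09 to 1.18 TPM, and the 4 melanocyte markers to 4.54 to 6.93 and 1.27 to 1.83 TPM. With AEG 3482 these 3 sums were 3.83 to 4.94, 1.63 to 1.77 and 1.55 to 2.22 TPM, and with Antimycin A they were 3.69 to 4.60, 6.20 to 7.39 and 16.1 to 18.6 TPM. With Podofilox the leukocyte and melanocyte sums were 6.27 to 7.60 and 6.52 to 7.90 TPM, with Clofilium tosylate 7.46 to 8.08 and 9.71 to 14.5 TPM, and with Dihydrorotenone, Diphenyleneiodonium Cl and BerberineA together 7.52 to 10.5 and 12.0 to 15.8 TPM, while the endothelial sum of these 5 compounds was 4.98 to 8.01 TPM. The 3 Schwann cell markers summed to 2.42 to 5.41 TPM over all libraries. In these bulk samples fewer cells of a type and less RNA per cell cannot be told apart, and the part of these markers in the results below was not tested.

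Each synthetase recognises 1 amino acid and the tRNAs that carry it, and the charged tRNA is what the ribosome reads. Cytosolic and mitochondrial protein synthesis mostly use separate enzymes, all encoded in the nucleus, and the mitochondrial ones are imported. Glycyl- and lysyl-tRNA synthetase (Gars and Kars) are exceptions, since each gene supplies both compartments. Several cytosolic enzymes are held together in the multi-synthetase complex. When tRNAs lack their amino acid, the kinase GCN2 phosphorylates the initiation factor eIF2α, translation of the transcription factor ATF4 rises, and ATF4 raises a set of genes that includes many cytosolic synthetases. ATF4 with a C/EBP partner binds a composite element called CARE.

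The region before the transcription start was searched for the CARE letters TGATGNAA on both strands, since ATF4 acts through this element. RefSeq windows of 250 bases before to 50 after the start (GRCm38.p6) were used for 12 of the 19 cytosolic and 14 of the 16 mitochondrial members. No window was searched for Cars, Hars, Lars, Nars, Rars, Vars, Wars, Hars2 and Pars2. Whether these members hold the letters was therefore not tested, and the counts below leave them out. TGATGNAA occurred in 5 of the 12 cytosolic members (Aars, Gars, Iars, Tars and Yars) and in 0 of the 14 mitochondrial members, against 3.97% of all 32851 windows (1304). The letters TGACNNNGC of the antioxidant response element, which NRF2 binds, occurred in Aars, Iars, Aars2, Lars2 and Nars2 and in 12.4% of all windows. A match describes letters and is no evidence that a factor binds. The 250 bases before the start of Aars are shown first because this member reached the highest fold change, followed by the stretches of 30 bases that hold the other matches. Each is written 5′ to 3′ on the gene's strand, with the match in capitals. TTGCATCA and TTTCATCA are the same letters read on the opposite strand.
Aars, 250 bases before the start, plus strand, chr8:111033592-111033841: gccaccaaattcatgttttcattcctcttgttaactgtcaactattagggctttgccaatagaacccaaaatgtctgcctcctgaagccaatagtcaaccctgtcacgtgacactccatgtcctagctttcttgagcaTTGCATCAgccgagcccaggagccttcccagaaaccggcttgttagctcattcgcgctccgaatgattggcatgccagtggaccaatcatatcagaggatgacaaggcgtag
Aars, over the start, plus strand, chr8:111033840-111033869: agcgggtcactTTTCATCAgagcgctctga
Gars, before the start, plus strand, chr6:55037960-55037989: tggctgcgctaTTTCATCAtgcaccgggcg
Iars, over the start, plus strand, chr13:49682126-49682155: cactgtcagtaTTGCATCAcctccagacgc
Tars, over the start, minus strand, chr15:11399655-11399684: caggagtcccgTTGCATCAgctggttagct
Yars, over the start, plus strand, chr4:129189895-129189924: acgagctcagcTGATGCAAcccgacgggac
The first Aars match began 112 bases before the start, the Gars match 30 bases and the Tars match 15 bases before it. The second Aars match began at transcribed base 10, that of Iars at base 8 and that of Yars at base 4.

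In DMSO the cytosolic synthetases were more abundant than the mitochondrial ones, with a median of 41.4 against 7.54 TPM. Seryl-tRNA synthetase (Sars) was highest at 129 ± 8.45 TPM (SD, n = 6), with libraries from 123 to 146 TPM (median 127), and tryptophanyl-tRNA synthetase (Wars) was lowest among the cytosolic members at 20.9 ± 1.13 TPM, with libraries from 19.5 to 22.9 TPM (median 20.7). Sars and the asparaginyl enzyme Nars (87.3 ± 2.49 TPM) stood clear of the next member, while Gars, Dars, Eprs, Kars and Qars, between 61.7 and 64.9 TPM on average, each overlapped the next in the order, down to Rars at 54.5 TPM. Of the mitochondrial members, the histidyl enzyme Hars2 was highest, with libraries from 34.0 to 39.3 TPM (median 37.0), and the methionyl enzyme Mars2 was lowest, with libraries from 0.923 to 1.17 TPM (median 1.07). In 10 of 12 amino acids with both genes in the set, the cytosolic gene was above its mitochondrial counterpart in every DMSO library. The ratio was highest for serine, at 22.1 ± 2.36 (SD, n = 6), and the order was turned for isoleucine, where Iars2 exceeded Iars in every library (ratio 0.872 ± 0.0538). Hars and Hars2 overlapped, and the 2 genes also overlap on opposite strands. Some levels are uncertain because transcripts share sequence: 23.6% of the 31-base words of Iars2 also occur in another gene, mainly Rab3gap2, 14.7% of those of Iars and 14.4% of those of Aars. Cars2, at 2.66 TPM, overlaps Naxd, at 79.8 TPM over all libraries, on the opposite strand, and the use of strand in counting is not stated.

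Summed over the 19 cytosolic genes, the level was 964 ± 29.7 TPM (SD, n = 6) in DMSO and 1721 ± 85.1 TPM, 179% of DMSO, with Cardamonin (n = 3). It was 1358 ± 37.1 TPM, 141% of DMSO, with Podofilox, 1198 ± 21.6 TPM, 124% of DMSO, with Antimycin A, 1149.7 ± 13.5 TPM, 119% of DMSO, with AEG 3482 and 1145 ± 13.1 TPM, 119% of DMSO, with Clofilium tosylate. The 3 libraries of each of these 5 compounds lay above all 6 DMSO libraries, whose range was 924 to 1013 TPM. BerberineA, Diphenyleneiodonium Cl and Dihydrorotenone gave 106%, 101% and 95.9% of the DMSO mean, and their ranges overlapped DMSO. The 16 mitochondrial genes summed to 184 ± 7.28 TPM in DMSO, 219 ± 1.45 TPM with Cardamonin and 207 ± 6.33 TPM with AEG 3482. For these 2 compounds every library was above the DMSO range of 175 to 194 TPM, while Antimycin A (177 to 201 TPM) overlapped it.

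**Figure D1:**
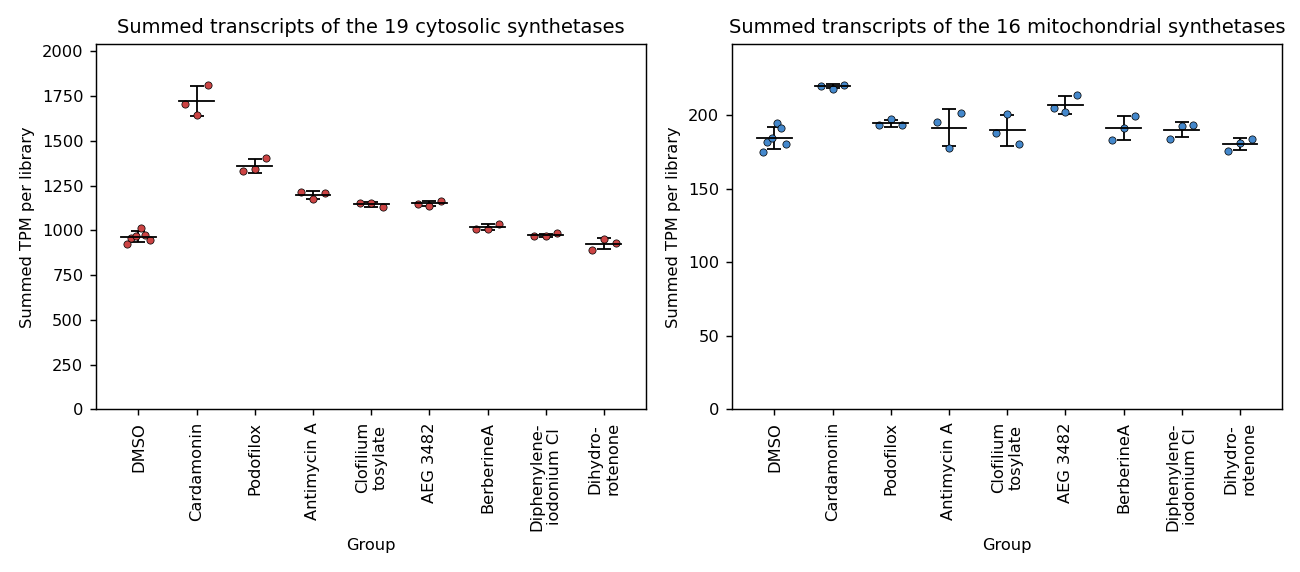
Summed TPM of the 19 cytosolic (left) and 16 mitochondrial (right) synthetases per library; points are libraries, bars the group mean and error bars the SD (n = 6 for DMSO, 3 for each compound). The Cardamonin libraries sit highest in both panels, at 1645 to 1813 TPM on the left.

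With Cardamonin nearly all cytosolic synthetases rose. In limma, a linear model that shares its estimate of the spread across all 13644 tested genes, 17 of 19 cytosolic members rose (adjusted p under 0.05) and 0 fell, where 0 were also lower at an unadjusted p under 0.05, and 70.3% of all tested genes changed, 37.3% upward and 33.0% downward. The median log2 fold change, on log2(TPM + 1), was 0.81 for these members and 0.03 for all tested genes. Aars, the alanyl enzyme (ENSMUSG00000031960, chromosome 8, positions 111033144 to 111057664, plus strand), rose most: it measured 161, 152 and 180.1 TPM, against 34.1 to 44.3 TPM (median 40.8) in DMSO. All 3 Cardamonin libraries lay above all 6 DMSO libraries, and the log2 fold change was 2.03 ± 0.08 (SE; adjusted p = 7.69e-18, limma). The cysteinyl enzyme Cars rose 2.83-fold on that scale, to 94.5, 87.7 and 87.2 TPM. The asparaginyl enzyme Nars rose by 1.25, Sars by 1.05, Wars by 1.03 and the joined glutamyl-prolyl enzyme Eprs by 0.96 on the log2 scale. The arginyl, leucyl and isoleucyl enzymes Rars, Lars and Iars rose by 0.86, 0.86 and 0.84, Gars by 0.81 and the phenylalanyl subunits Farsa and Farsb by 0.59 and 0.74. Kars and Qars did not pass the test, with log2 fold changes of 0.00 and -0.24, and the rises of Dars, Hars and Vars, at most 0.19, were lost in at least 1 alternative analysis. Under quantile normalization 14 cytosolic members were higher and 2, Kars and Qars, lower.

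Among the 16 mitochondrial members Cardamonin raised 6 and lowered 3, against the 70.3% of all tested genes that changed, with a median log2 fold change of 0.12. That median was 0.0545 under median-ratio scaling (5 higher and 3 lower; each library divided by its median ratio to a common reference) and 0.28 under quantile normalization (8 and 2). The tyrosyl enzyme Yars2 measured 27.7, 27.4 and 23.1 TPM, against 12.0 to 16.3 TPM (median 13.5) in DMSO, so the groups did not overlap (log2 fold change 0.89 ± 0.10 SE, limma adjusted p = 2.89e-08). The glutamyl enzyme Ears2 rose by 0.71, the threonyl enzyme Tars2 by 0.46 and Iars2 by 0.43. Sars2, the seryl enzyme, went the other way, at 3.88, 4.20 and 4.65 TPM against 5.50 to 6.35 TPM (median 5.83) in DMSO, with every Cardamonin library lower (log2 fold change -0.39 ± 0.07 SE, limma adjusted p = 3.12e-05). Hars2 and Wars2 fell by 0.35 and 0.21. The Hars2 call was lost without Cardamonin replicate 2 (limma adjusted p = 0.0689) and the Wars2 call without Cardamonin replicate 1 (limma adjusted p = 0.166).

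**Figure D2:**
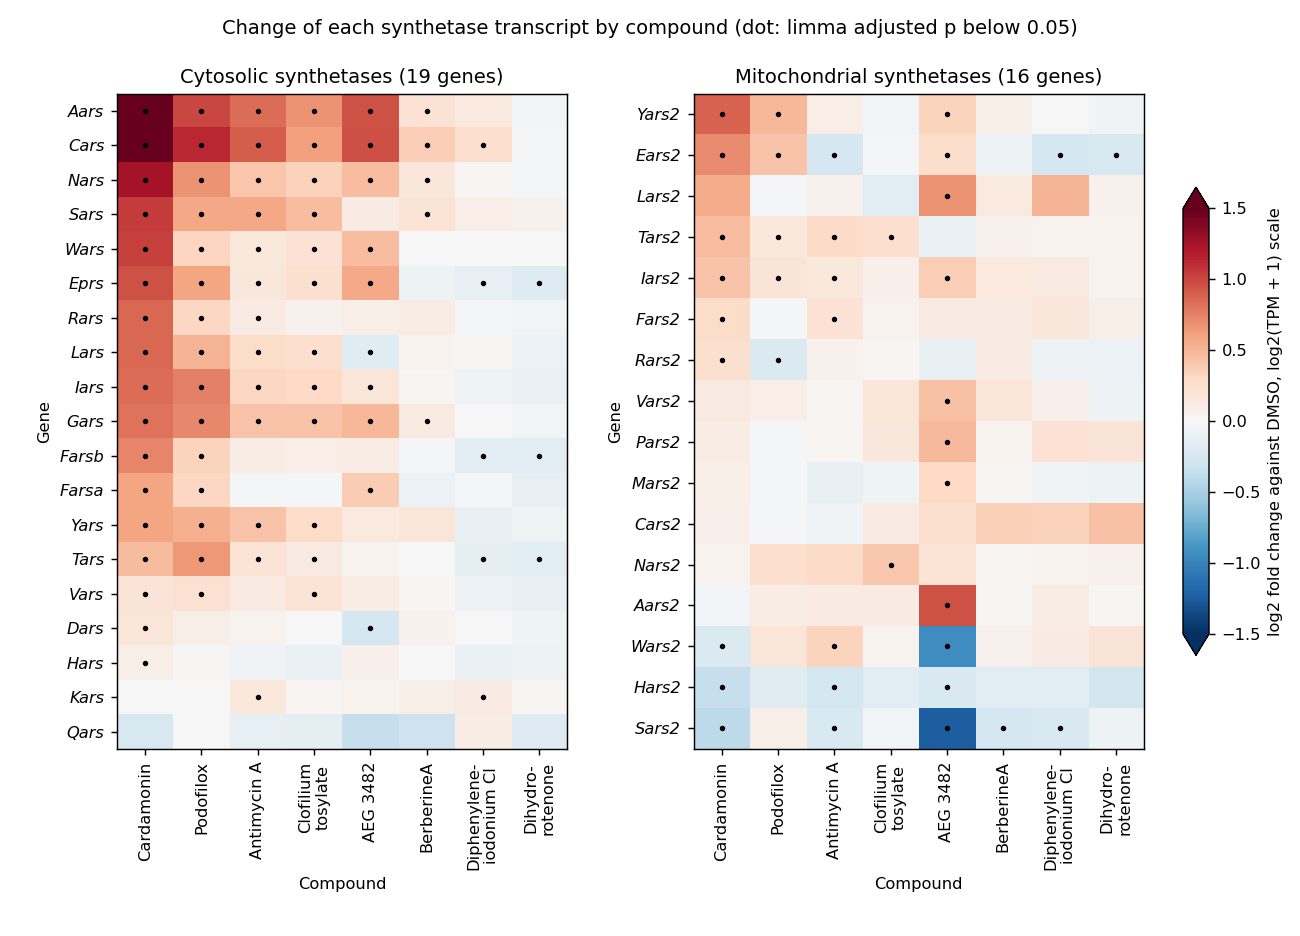
Log2 fold change against DMSO, on log2(TPM + 1), of the 19 cytosolic and 16 mitochondrial synthetases (rows) for the 8 compounds (columns); dots mark members past the adjusted p threshold of 0.05, and the colour scale saturates beyond its ends. Cardamonin and Podofilox raise most cytosolic members, and Sars2 and Wars2 are lowest with AEG 3482.

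Podofilox raised 15 of 19 cytosolic members and lowered 0, also at an unadjusted p under 0.05, where 46.2% of all tested genes changed, 26.2% upward and 20% downward. The median log2 fold change was 0.51, against 0.04 for all tested genes. Cars (ENSMUSG00000010755, chromosome 7, positions 143557230 to 143600090, minus strand) rose most, at 69.5, 66.6 and 71.3 TPM against 26.3 to 34.7 TPM (median 31.5) in DMSO. The groups did not overlap, and the log2 fold change was 1.13 ± 0.09 (SE; adjusted p = 1.82e-10, limma). Aars rose by 1.01, Iars by 0.76, Gars by 0.72, Nars by 0.67 and the threonyl enzyme Tars by 0.65. Dars, Hars, Kars and Qars did not pass the test, with log2 fold changes between 0.00 and 0.09. Of the mitochondrial members 4 rose and 1 fell, a median log2 fold change of 0.09. Yars2 measured 18.4, 20.9 and 19.3 TPM, above all 6 DMSO libraries (log2 fold change 0.50 ± 0.10 SE, limma adjusted p = 3.21e-04). Rars2, the arginyl enzyme, measured 16.7, 19.7 and 18.3 TPM against 19.4 to 25.0 TPM (median 20.9) in DMSO, where the ranges overlapped (log2 fold change -0.21 ± 0.08 SE, limma adjusted p = 0.0246). The mitochondrial count was 2 without Podofilox replicate 1 and 3 without Podofilox replicate 3 or DMSO replicate 6. The Rars2 call was lost without Podofilox replicate 1 or 3 or DMSO replicate 6 (limma adjusted p = 0.0577 to 0.169), and those of Iars2 and Tars2 in at least 1 alternative.

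Antimycin A raised 13 of 19 cytosolic members and lowered 0, also at an unadjusted p under 0.05, where 37.3% of all tested genes changed, 21.8% upward and 15.5% downward. Cars measured 67.9, 55.8 and 54.5 TPM and Aars 75.8, 64.8 and 74.4 TPM, both above all DMSO libraries. Their log2 fold changes were 0.91 ± 0.09 (SE; adjusted p = 1.49e-08, limma) and 0.84. Sars rose by 0.58, Gars by 0.43 and the tyrosyl enzyme Yars by 0.42. Kars rose by 0.16, with libraries of 70.8, 67.3 and 69.1 TPM against 58.8 to 65.6 TPM (median 61.9) in DMSO. Gars measured 87.8, 87.1 and 87.7 TPM, against 63.2 to 68.7 TPM (median 64.3), so neither of the 2 genes that serve both compartments overlapped DMSO. The mitochondrial members were mixed, with 4 higher and 3 lower. The tryptophanyl enzyme Wars2 measured 6.77, 5.54 and 6.89 TPM, against 4.01 to 5.47 TPM (median 4.94) in DMSO (log2 fold change 0.33 ± 0.08 SE, limma adjusted p = 0.00102), and did not overlap it. Hars2 measured 33.2, 29.4 and 29.7 TPM, below all 6 DMSO libraries (log2 fold change -0.26 ± 0.10 SE, limma adjusted p = 0.0371). Without Antimycin A replicate 2 the mitochondrial count was 4 instead of 7. The Hars2 call was lost without Antimycin A replicate 2 or 3 or DMSO replicate 2, 3 or 4 (limma adjusted p = 0.0551 to 0.132), and those of Ears2, Iars2, Rars, Sars2 and Wars in at least 1 alternative.

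Clofilium tosylate raised 12 of 19 cytosolic members and lowered 0, although 1 was lower at an unadjusted p under 0.05, where 23.4% of all tested genes changed, 10.9% upward and 12.5% downward. Aars measured 65.9, 65.9 and 59.8 TPM, above all DMSO libraries (log2 fold change 0.68 ± 0.08 SE, limma adjusted p = 4.46e-07). Cars rose by 0.62, Sars by 0.47, Gars by 0.43 and Nars by 0.35. Of the mitochondrial members 2 rose, Tars2 by 0.25 and the asparaginyl enzyme Nars2, which measured 6.32, 8.97 and 8.13 TPM against 4.39 to 8.01 TPM (median 4.98) in DMSO, overlapping it (log2 fold change 0.41 ± 0.15 SE, limma adjusted p = 0.0496). The Nars2 call was lost without Clofilium tosylate replicate 2 or 3 or DMSO replicate 1, 2, 3 or 6 (limma adjusted p = 0.0748 to 0.244), which left 1 mitochondrial call. The Vars call was lost without Clofilium tosylate replicate 2 or 3 or DMSO replicate 1, 3, 5 or 6 (limma adjusted p = 0.0559 to 0.236). That of Yars was lost without Clofilium tosylate replicate 3 (limma adjusted p = 0.0849). Rescaling without the 20 most abundant genes gave 12 cytosolic members higher and 1, Hars, lower. In the direct contrast of Antimycin A with Clofilium tosylate, limma called 0 of 35 members, where 5.21% of all tested genes were called (3.85% higher and 1.36% lower), and 6 members had an unadjusted p under 0.05. The largest of these differences, for Cars, was 0.29 (95% interval 0.07 to 0.50). Without Antimycin A replicate 2, 1 member was called. Of all calls in this contrast 73.8% were higher with Antimycin A, or 54.7% under median-ratio scaling.

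Antimycin A and Dihydrorotenone both act on the respiratory chain, and their libraries were compared directly. Of 35 members, 14 were higher with Antimycin A and 0 lower, also at an unadjusted p under 0.05, where 15.5% of all tested genes differed, 11.6% higher and 3.91% lower. These were 13 cytosolic members and the mitochondrial Tars2, which differed by 0.23 and was lost without Antimycin A replicate 1, 2 or 3 or Dihydrorotenone replicate 1 or 3 (limma adjusted p = 0.0728 to 0.179). The Rars call was lost without Antimycin A replicate 1, 2 or 3 or Dihydrorotenone replicate 2 or 3 (limma adjusted p = 0.0638 to 0.161) and that of Vars without Antimycin A replicate 2 or 3 or Dihydrorotenone replicate 1 (limma adjusted p = 0.0961 to 0.25). Cars differed by 0.93 ± 0.11 (SE; adjusted p = 7.29e-07, limma) and Aars by 0.89, and for both genes no library of one compound overlapped the other. The doses of the 2 compounds are not given. Under median-ratio scaling or without the 20 most abundant genes the same contrast called 11 cytosolic and 0 mitochondrial members. Under quantile normalization it called 11 cytosolic members higher and 1 mitochondrial member lower with Antimycin A. Of all calls 74.8% were higher with Antimycin A, or 51.6% under median-ratio scaling.

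**Figure D3:**
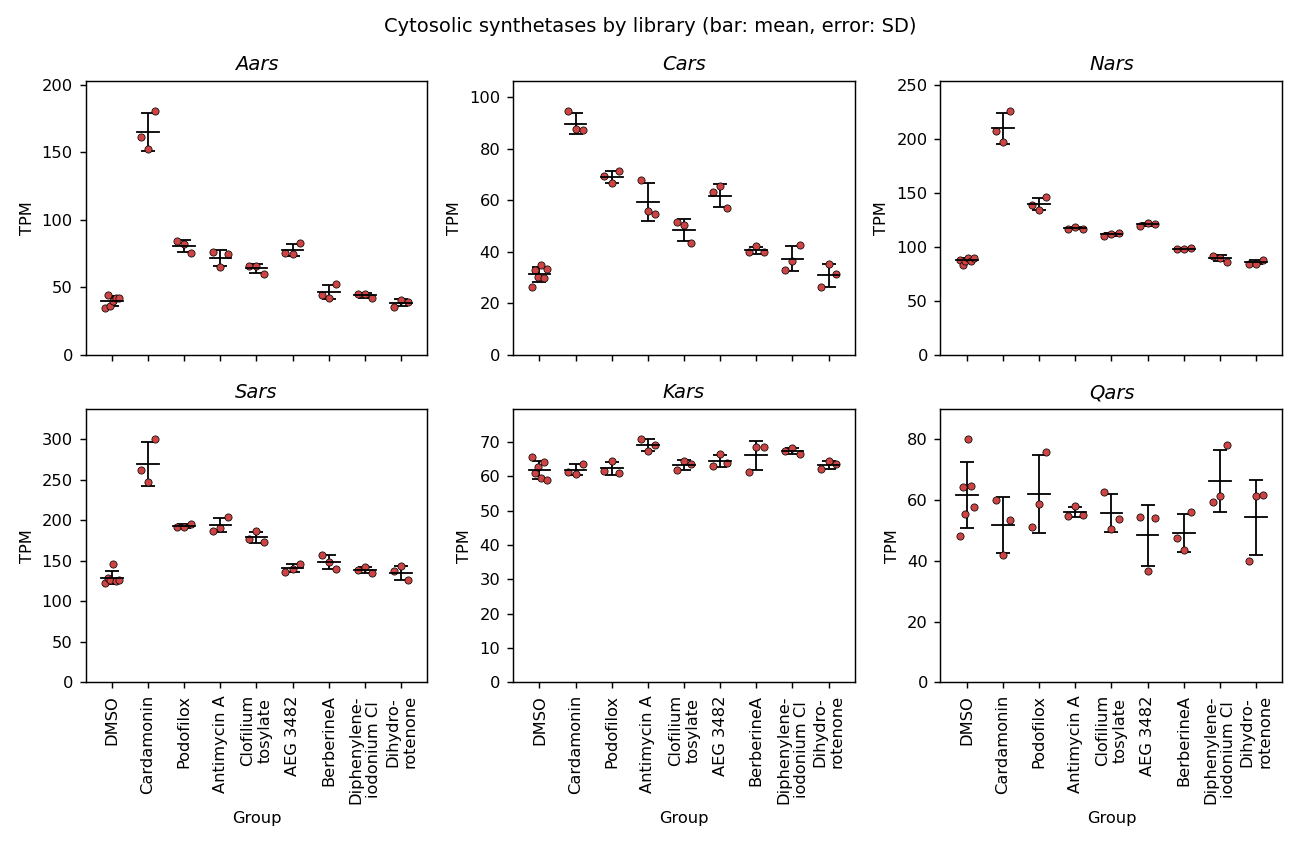
TPM per library of 6 cytosolic synthetases in the 9 groups; points are libraries, bars the group mean and error bars the SD. Aars, Cars, Nars and Sars are highest with Cardamonin, while the Kars mean is highest with Antimycin A and the Qars libraries of DMSO span 48.3 to 79.9 TPM.

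AEG 3482 moved the synthetases in both directions. It raised 8 and lowered 2 cytosolic members, where 68.1% of all tested genes changed, 41.3% upward and 26.8% downward, and the median of all tested genes was itself 0.10, moving to -0.04 under median-ratio scaling. Higher calls were 60.7% of all calls, or 46.2% under that scaling. There 7 cytosolic members were higher and 5 lower (Dars, Kars, Lars, Qars and Tars), and under quantile normalization 7 and 6, with Hars added. Cars measured 63.0, 65.6 and 56.9 TPM, above all DMSO libraries (log2 fold change 0.97 ± 0.09 SE, limma adjusted p = 8.14e-10), and Aars rose by 0.95. Dars, the aspartyl enzyme, measured 56.8, 52.4 and 50.2 TPM against 58.9 to 67.8 TPM (median 63.6) in DMSO, below all 6 libraries (log2 fold change -0.26 ± 0.05 SE, limma adjusted p = 7.35e-05). Lars fell by 0.18.

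Of the 16 mitochondrial members AEG 3482 raised 8 and lowered 3, against the 68.1% of all tested genes that changed, with a median log2 fold change of 0.25. Under median-ratio scaling 5 were higher and 5 lower, with a median of 0.13, and under quantile normalization 7 and 5. Aars2, the alanyl enzyme (ENSMUSG00000023938, chromosome 17, positions 45506841 to 45520843, plus strand), measured 12.6, 15.2 and 12.7 TPM, against 5.93 to 6.92 TPM (median 6.60) in DMSO (log2 fold change 0.95 ± 0.07 SE, limma adjusted p = 1.14e-11). No other compound passed the test for Aars2; among them the log2 fold changes ran from -0.04 to 0.12. The leucyl, prolyl and valyl enzymes Lars2, Pars2 and Vars2 rose by 0.68, 0.48 and 0.44. Sars2 (ENSMUSG00000070699, chromosome 7, positions 28741992 to 28753871, plus strand) measured 1.69, 2.04 and 1.998 TPM, against 5.50 to 6.35 TPM (median 5.83) in DMSO, a log2 fold change of -1.24 ± 0.07 (SE; adjusted p = 7.91e-14, limma). Wars2 fell too, by 0.93, to 2.02, 2.13 and 2.08 TPM. For both genes all 3 AEG 3482 libraries were below every library of the other 8 groups. The Lars2 call was lost without AEG 3482 replicate 3 or DMSO replicate 3 or 6 (limma adjusted p = 0.0546 to 0.112) and that of Pars2 without AEG 3482 replicate 3 (limma adjusted p = 0.0936), and those of Ears2, Hars2, Iars and Yars2 were lost in at least 1 alternative.

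**Figure D4:**
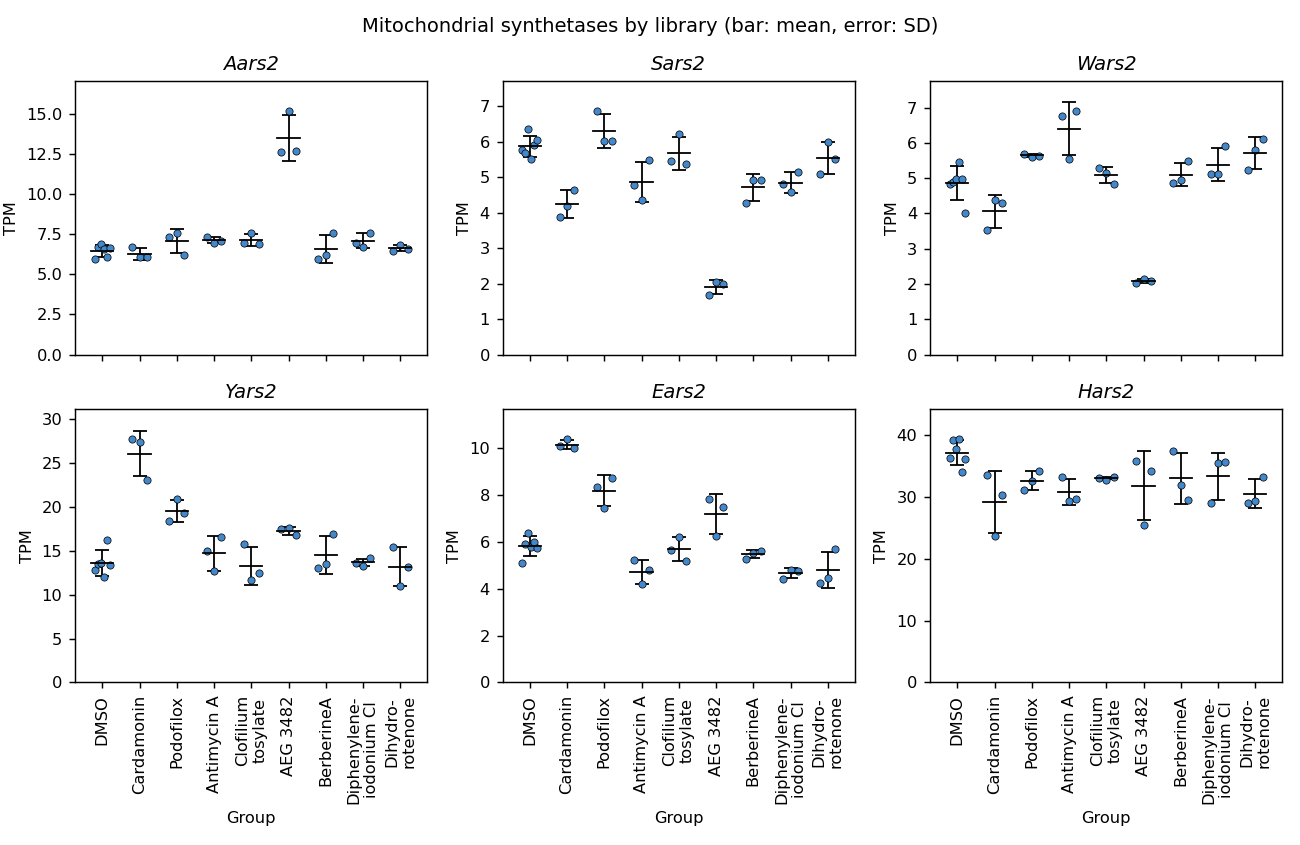
TPM per library of 6 mitochondrial synthetases in the 9 groups; points are libraries, bars the group mean and error bars the SD. Aars2 is highest and Sars2 and Wars2 are lowest with AEG 3482, and Yars2 is highest with Cardamonin.

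Cardamonin and AEG 3482 were also compared directly. Of 35 members 21 were higher with Cardamonin and 2 lower, where 55.3% of all tested genes differed, 22.6% higher and 32.7% lower. The 15 cytosolic calls were all in the direction of Cardamonin, with Aars at 1.08 ± 0.09 (SE; adjusted p = 1.94e-10, limma), Lars at 1.04 and Sars at 0.93. Sars2 was higher by 0.85 and Wars2 by 0.71, and Aars2 and Mars2 were lower, by 0.99 and 0.21. The Mars2 call was lost without Cardamonin replicate 1 or 2 or AEG 3482 replicate 1, 2 or 3 (limma adjusted p = 0.064 to 0.109). In the contrast of Cardamonin with Podofilox 10 cytosolic members were higher and 1 lower, and 6 mitochondrial members were higher and 2 lower, where 57.8% of all tested genes differed, 28.7% higher and 29.1% lower. Aars differed by 1.02 ± 0.09 (SE; adjusted p = 2.98e-10, limma), Wars by 0.70 and Nars by 0.58. Tars was the cytosolic exception, lower with Cardamonin by 0.17, with libraries of 63.2, 62.0 and 66.0 TPM against 71.2, 71.5 and 73.1 TPM with Podofilox. Rars2 was higher with Cardamonin by 0.45 and Sars2 lower by 0.48.

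With the other 3 compounds few members passed. BerberineA raised 5 of 19 cytosolic members, where 21.7% of all tested genes changed, 12.6% upward and 9.16% downward: Cars, Nars, Aars, Sars and Gars. Cars measured 39.8, 42.1 and 39.7 TPM, above all DMSO libraries (log2 fold change 0.37 ± 0.09 SE, limma adjusted p = 0.00364), and Nars rose by 0.17. The only mitochondrial call was Sars2, at 4.26, 4.93 and 4.93 TPM (log2 fold change -0.27 ± 0.07 SE, limma adjusted p = 0.00789). Of all calls with BerberineA 57.9% were higher, or 47.5% under median-ratio scaling. Without BerberineA replicate 3 the cytosolic count was 3, and under median-ratio scaling 4 members were higher and 1, Eprs, lower. The Aars call was lost without BerberineA replicate 1 or 3 or DMSO replicate 1, 3 or 4 (limma adjusted p = 0.0547 to 0.353), that of Gars without BerberineA replicate 3 (limma adjusted p = 0.107), and those of Sars and Sars2 without BerberineA replicate 1 (limma adjusted p = 0.0795 and 0.0716).

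Diphenyleneiodonium Cl raised 2 cytosolic members and lowered 3, where 25.7% of all tested genes changed, 14.0% upward and 11.7% downward. Cars measured 32.9, 36.3 and 42.6 TPM, overlapping DMSO (log2 fold change 0.25 ± 0.09 SE, limma adjusted p = 0.0463), and Kars rose by 0.12, at 67.5, 68.4 and 66.5 TPM. Farsb, a subunit of the phenylalanyl enzyme, measured 29.6, 27.1 and 25.3 TPM against 29.2 to 33.4 TPM (median 30.5) in DMSO (log2 fold change -0.17 ± 0.05 SE, limma adjusted p = 0.0161), and overlapped it. Tars and Eprs fell by 0.14 and 0.12. Ears2, at 4.41, 4.81 and 4.77 TPM against 5.09 to 6.39 TPM (median 5.85) in DMSO, was lower in every library (log2 fold change -0.27 ± 0.08 SE, limma adjusted p = 0.015), as was Sars2 by 0.23. Of these 7 calls 1, Tars, held in every alternative. The Cars call was lost without Diphenyleneiodonium Cl replicate 2 or 3 or DMSO replicate 1, 3 or 5 (limma adjusted p = 0.0704 to 0.332), that of Kars without Diphenyleneiodonium Cl replicate 1 or 2 (limma adjusted p = 0.0624 to 0.0903), that of Farsb without Diphenyleneiodonium Cl replicate 2 or 3 (limma adjusted p = 0.0586 to 0.162) and that of Ears2 without Diphenyleneiodonium Cl replicate 1 (limma adjusted p = 0.0793). Each of the 3 scalings gave 4 lower (Eprs, Farsb, Hars and Tars) and at most 1 higher cytosolic call. The cytosolic count was 1 without Diphenyleneiodonium Cl replicate 2, 2 without replicate 3 and 3 without DMSO replicate 3 or 5, and the mitochondrial count was 0 without Diphenyleneiodonium Cl replicate 1 and 1 without replicate 2.

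Dihydrorotenone raised 0 of 35 members by limma, where 14.4% of all tested genes changed, 4.95% upward and 9.43% downward, and 2 were higher at an unadjusted p under 0.05. It lowered 3 cytosolic members, Eprs, Tars and Farsb, and 1 mitochondrial member, Ears2. Eprs measured 53.4, 56.3 and 57.2 TPM against 60.0 to 67.0 TPM (median 63.7) in DMSO, below all 6 libraries (log2 fold change -0.19 ± 0.04 SE, limma adjusted p = 0.00495). Ears2 measured 4.26, 4.47 and 5.69 TPM, overlapping DMSO (log2 fold change -0.24 ± 0.08 SE, limma adjusted p = 0.0461). The Ears2 call was lost without Dihydrorotenone replicate 1 or 2 or DMSO replicate 2, 3, 4, 5 or 6 (limma adjusted p = 0.0512 to 0.27), and Tars was the call that held in every alternative. Of all calls 34.4% were higher, or 50.1% under median-ratio scaling.

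Gars and Kars, the 2 genes that serve both compartments, differed in how often they were called. In DMSO, Gars measured 63.2 to 68.7 TPM (median 64.3) and Kars 58.8 to 65.6 TPM (median 61.9). Gars measured 115, 112 and 116 TPM with Cardamonin, 104, 108 and 111 TPM with Podofilox, 87.7, 89.6 and 85.7 TPM with Clofilium tosylate and 95.5, 91.5 and 90.1 TPM with AEG 3482, all above every DMSO library. It measured 67.3, 71.8 and 74.3 TPM with BerberineA, 65.0, 65.1 and 65.8 TPM with Diphenyleneiodonium Cl and 61.9, 67.1 and 60.4 TPM with Dihydrorotenone, where the ranges overlapped DMSO. Kars overlapped the DMSO range with 6 compounds. It measured 61.4, 60.7 and 63.7 TPM with Cardamonin, 61.5, 64.6 and 60.9 TPM with Podofilox, 61.9, 64.5 and 63.6 TPM with Clofilium tosylate and 63.0, 66.5 and 63.9 TPM with AEG 3482. With BerberineA Kars measured 61.3, 68.6 and 68.6 TPM and with Dihydrorotenone 62.2, 64.5 and 63.6 TPM. Gars was called higher in 6 compounds and Kars in 2, Antimycin A and Diphenyleneiodonium Cl, and the difference between the 2 genes was not tested. The sign for Kars turned negative under both median-ratio scaling and quantile normalization with Cardamonin, AEG 3482 and Podofilox, and the change passed the test under quantile normalization with Cardamonin and under both with AEG 3482.

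Across the 8 compounds, Cars was called higher in 7, and Aars, Gars and Nars in 6. Sars, Eprs, Iars and Wars were called higher in 5, and Eprs lower in 2. The share of all tested genes called higher ran from 4.95% with Dihydrorotenone to 41.3% with AEG 3482. Lost in at least 1 alternative were the calls of Cars with Diphenyleneiodonium Cl and of Aars, Gars and Sars with BerberineA. So were those of Wars with Antimycin A and Iars with AEG 3482, and both lower calls of Eprs. Qars passed in 0 of 8 comparisons by limma, with 1 at an unadjusted p under 0.05, and its DMSO libraries ran from 48.3 to 79.9 TPM. The mitochondrial cysteinyl enzyme Cars2 likewise passed in 0, with 1 unadjusted. Sars2 was called lower in 5 compounds and higher in 0: Cardamonin, AEG 3482, Antimycin A, Diphenyleneiodonium Cl and BerberineA. The Sars2 calls with Antimycin A, Diphenyleneiodonium Cl and BerberineA were lost in at least 1 alternative. Its cytosolic counterpart Sars was called higher in 5 compounds, which included Cardamonin, Antimycin A and BerberineA but not AEG 3482 or Diphenyleneiodonium Cl. The median log2 fold change of the cytosolic members was 0.17 with Antimycin A, 0.22 with Clofilium tosylate, 0.12 with AEG 3482, 0.05 with BerberineA, -0.01 with Diphenyleneiodonium Cl and -0.07 with Dihydrorotenone. With AEG 3482 it turned to -0.0288 under median-ratio scaling and -0.0337 under quantile normalization. That of all tested genes lay between -0.03 and 0.10 over the 8 compounds. Of the 19 cytosolic members 15 had their highest group mean with Cardamonin, and of the 16 mitochondrial members 6 had it with Cardamonin and 5 with AEG 3482. The set holds 7 members of the multi-synthetase complex: Dars, Eprs, Iars, Kars, Lars, Qars and Rars. Mars, which also belongs to the complex, is outside the set and these counts, and its changes are given below. With Cardamonin 5 of these 7 rose, a median of 0.84, and 12 of 12 free cytosolic members, a median of 0.77. There 37.3% of all tested genes rose and 33.0% fell. With Podofilox the counts were 4 of 7 and 11 of 12, with medians of 0.32 and 0.56, and with Clofilium tosylate 3 of 7 and 9 of 12, where 26.2% and 10.9% of all tested genes rose. With Antimycin A 5 of 7 and 8 of 12 rose, against 21.8%. With AEG 3482 2 complex members rose and 2 fell, and 6 of 12 free members rose, against 41.3% rising and 26.8% falling. With BerberineA 0 of 7 and 5 of 12 rose, against 12.6% of all tested genes. The difference between complex and free members was not tested.

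The 5 cytosolic members with TGATGNAA near the start all rose with Cardamonin, Podofilox, Antimycin A and Clofilium tosylate. Their median log2 fold changes were 0.81, 0.72, 0.42 and 0.30. The Yars call with Clofilium tosylate was lost without replicate 3 of that compound. The 7 cytosolic members whose window lacked the letters had medians of 0.59, 0.31, 0.11 and 0.03 in the same order, and 5, 4, 3 and 2 of them rose. Of all tested genes 37.3%, 26.2%, 21.8% and 10.9% rose with these compounds. With AEG 3482, 3 of the 5 matched members rose, with a median of 0.19 and 41.3% of all tested genes rising, and with BerberineA 2 rose, against 12.6%. With Dihydrorotenone and with Diphenyleneiodonium Cl 0 rose and 1, Tars, fell, and all 5 lay below 0 with Dihydrorotenone. With Cardamonin the 7 cytosolic members for which no window was searched had a median of 0.86, above that of the members with a match. Whether they hold the letters is not known from this search. These medians are a description of few genes, and the difference was not tested.

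**Figure D5:**
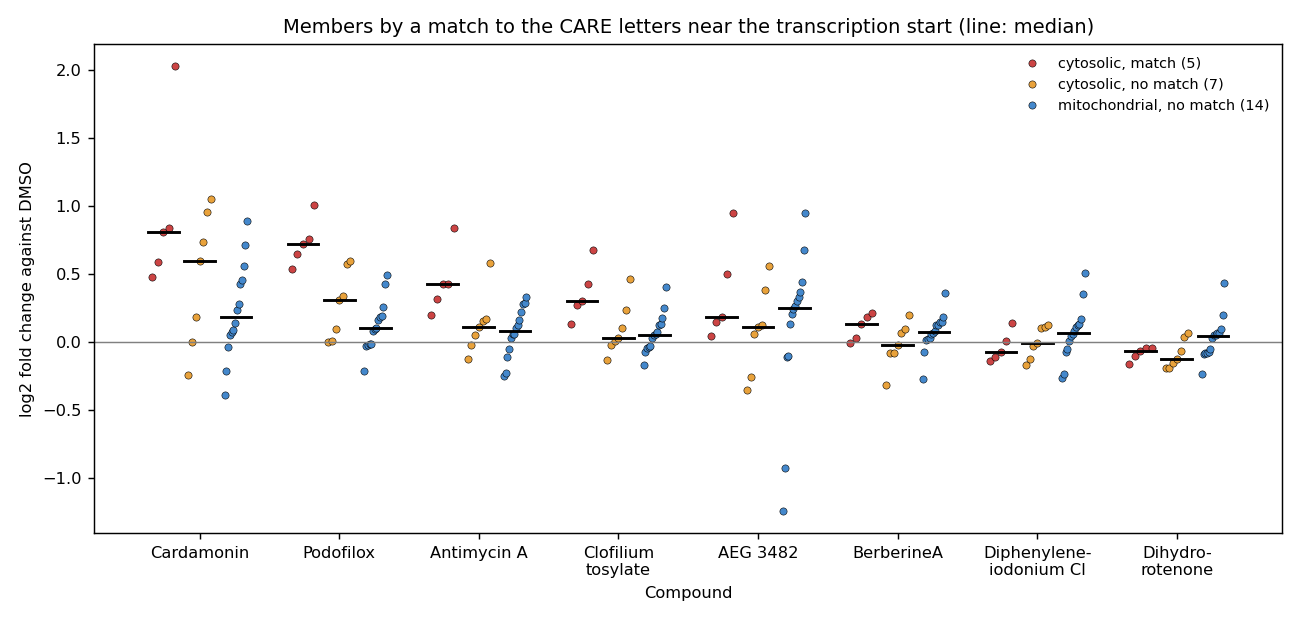
Log2 fold change against DMSO of cytosolic members with a match to the CARE letters (5), cytosolic members without one (7) and mitochondrial members without one (14), for each compound; points are genes and lines medians. All 5 matched members lie above 0 with Cardamonin, Podofilox, Antimycin A, Clofilium tosylate and AEG 3482, although with AEG 3482 Tars and Yars turned negative under median-ratio scaling and quantile normalization, and all 5 lie below 0 with Dihydrorotenone.

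Genes around the synthetases were read from lists chosen for their role. Mars rose with 6 compounds, by 0.81 with Cardamonin, 0.66 with AEG 3482, 0.64 with Podofilox, 0.57 with Antimycin A, 0.46 with Clofilium tosylate and 0.26 with BerberineA. Of the 3 scaffold genes of the complex, Eef1e1 rose by 0.84 and Aimp1 by 0.19 with Cardamonin. Gatb, a subunit of the enzyme that makes mitochondrial glutaminyl-tRNA, rose by 0.60 with Cardamonin and fell by 1.03 with AEG 3482. Prorsd1 and Dtd1, which belong to families that edit mischarged tRNA, fell by 1.36 and 1.08 with Cardamonin and by 1.04 and 0.86 with AEG 3482. The editing genes Aarsd1 and Dtd2 did not share the fall with Cardamonin. Their means were 19.9 and 8.93 TPM there, 15.2 and 7.59 TPM with AEG 3482, and 18.4 and 8.65 TPM in DMSO. Of 4 genes for mitochondrial translation factors (Tufm, Tsfm, Gfm1 and Gfm2), 4 rose with Cardamonin, with Gfm1 at 0.73. Of the 5 cytosolic elongation factors 2 rose and 1 fell with Cardamonin, where 37.3% of all tested genes rose and 33.0% fell. Of 4 genes for the synthesis or insertion of selenocysteine, Secisbp2 and Eefsec rose by 0.64 and 0.39 with Cardamonin and Sepsecs fell by 0.46. The Eefsec libraries, at 3.69 to 5.91 TPM with Cardamonin, overlapped DMSO, at 2.58 to 4.28 TPM.

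A list of 7 genes, drawn up for the response to uncharged tRNA, was measured in the same fit. They were the kinase gene Eif2ak4, the factors Atf4 and Ddit3, and the targets Trib3, Asns, Chac1 and Sesn2. The name of the list does not say which signal changed these genes. Uncharged tRNA itself was not measured, and neither its part in the changes below nor that of any other signal was tested. With Cardamonin, Podofilox, Antimycin A, Clofilium tosylate and AEG 3482, 6 of 7 rose, where 37.3%, 26.2%, 21.8%, 10.9% and 41.3% of all tested genes rose, with medians of 1.43, 1.15, 1.08, 0.98 and 0.53. The seventh, Eif2ak4, fell by 0.30 with Cardamonin and by 0.22 with AEG 3482 and did not pass with the other 3, at 0.02, 0.11 and -0.03. Asns, which makes asparagine, rose by 1.70, 1.17, 1.08, 0.98 and 0.53 in that order. Atf4 rose by 1.10 with Cardamonin and 1.15 with Podofilox, and by 0.49 with AEG 3482. With BerberineA 3 of 7 rose, against 12.6% of all tested genes. With Dihydrorotenone 0 rose by limma and 1, Chac1, fell by 0.39, against 4.95% rising and 9.43% falling. With Diphenyleneiodonium Cl 2 rose and 1 fell, against 14.0% rising and 11.7% falling. These comparisons share the DMSO libraries.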

How the data were processed

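RNA was measured in 30 libraries of a mouse tail fibroblast line, grouped by the treatment named in each label. Per the series text and the submitters' processing notes, the authors quantified transcripts with kallisto 0.43.1 (mm10 is the build named) and summed them per gene with tximport, and the deposited table holds TPM, which carries no depth. The transcript index is not given in the sources used here. The series text names DESeq2 on the authors' counts, which were not used here.

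Values were taken as log2(TPM + 1), with a pseudocount of 1, which understates the change of low genes. Testing kept the 13644 of 29861 genes that reached 1 TPM in 3 or more libraries. A single limma model (version 3.58.1, R 4.3.3) covered all 30 libraries, with a mean for every group and an intensity trend, and Benjamini-Hochberg adjustment over genes within each comparison was used (threshold 0.05). The code was tested on simulated data. Each compound was compared with DMSO, and 4 pairs of compounds directly. Symbols and positions come from GENCODE M21, and promoter windows from RefSeq (GRCm38.p6). Values in every library are given for the member of each class with the largest called rise and fall per compound, the highest and lowest in DMSO, and Gars and Kars; Tars is given by library in 1 contrast by the same rule. Library values of Aars with Antimycin A, Cars with Cardamonin and Wars2 with AEG 3482 were added after their values were seen. Alternatives were other pseudocounts, filters, scalings and fits, a replicate block and leaving out each library. The members, lists and motifs were chosen with earlier results of these data known.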

Additional observations from a re-analysis of the deposited data

Results flagged for a closer look

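In each of the 35 members the highest or lowest of the 6 DMSO libraries was tested for standing apart, by its gap to the nearest library over the whole range (Dixon's test at its 95% critical value), and chance marks about 1 in 20 such groups. The test marked 3 members. Gars measured 68.7 TPM in DMSO replicate 3, where the other libraries ran from 63.2 to 65.0 TPM. Hars measured 37.2 TPM in DMSO replicate 4, against 39.2 to 40.3 TPM in the others. Sars measured 146 TPM in the same replicate, against 123 to 129 TPM.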

How the results depend on the processing

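Of 118 member calls against DMSO, 81 held in every alternative. The cytosolic counts of Cardamonin, Podofilox, Antimycin A, Clofilium tosylate and AEG 3482 stayed within 1.5 times in every alternative. For Dihydrorotenone the 3 cytosolic calls became 1 with only the groups compared in the fit, and the 1 mitochondrial call became 0 with a pseudocount of 5, no filter, the replicate block or libraries numbered 1 to 3 without a block, and 2 with median-ratio scaling, quantile normalization or without the 20 most abundant genes. For Diphenyleneiodonium Cl the 5 cytosolic calls became 3 with no filter or no trend, 1 with only the groups compared, and 2 with the replicate block or libraries numbered 1 to 3 without a block, and the 2 mitochondrial calls became 1 with a mean of at least 5 TPM or libraries numbered 1 to 3 without a block. For BerberineA the 5 cytosolic calls became 3 with only the groups compared, and the 1 mitochondrial call became 0 with a mean of at least 5 TPM. For Clofilium tosylate the 2 mitochondrial calls became 1 with a pseudocount of 0.1, no filter, without the 20 most abundant genes, no trend or only the groups compared. The contrast of Antimycin A with Clofilium tosylate went from 0 calls to 1 with a pseudocount of 5, the replicate block or libraries numbered 1 to 3 without a block. Apart from the fits on fewer libraries, the cause was not tested.

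Leaving out 1 library at a time gave 4 to 8 mitochondrial calls for Antimycin A, 0 to 1 for Dihydrorotenone, 0 to 3 for Diphenyleneiodonium Cl, 1 to 2 for Clofilium tosylate and 2 to 6 for Podofilox. It gave 1 to 6 cytosolic calls for Diphenyleneiodonium Cl, 3 to 6 for BerberineA, and 0 to 1 calls for Antimycin A against Clofilium tosylate. Among log2 fold changes that passed the test before or after rescaling, the sign changed under quantile normalization for Hars (-0.0150) and Kars (-0.10) with Cardamonin, and for Hars (-0.10), Kars (-0.11) and Tars (-0.13) with AEG 3482, and under median-ratio scaling for Kars (-0.0942) and Tars (-0.10) with AEG 3482. Whether the replicate numbers pair the samples is not settled by a check of correlations, since such a check can miss weak pairing. Same-numbered libraries of different groups had a mean correlation of deviations of 0.00787 (4 of 108 pairs over 0.1). Differently numbered libraries had -0.00394 (5 of 216 pairs over 0.1), and 12 of 27 libraries correlated best with their own number. The fit on libraries numbered 1 to 3 without a block was chosen after seeing the data. TPM carries no depth, so low members such as Mars2 and Cars2 have unknown counting error.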

Other observations

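For 12 amino acids the set holds a cytosolic and a mitochondrial gene, so each pair could be read together. With Cardamonin both genes rose in 4 of 12 pairs, only the cytosolic gene passed in 5, and in 3 the cytosolic gene rose while the mitochondrial gene fell. The last were serine, histidine and tryptophan, where Sars, Hars and Wars rose and Sars2, Hars2 and Wars2 fell. Of all tested genes 37.3% rose and 33.0% fell with Cardamonin. Its calls of Hars, Vars, Hars2, Rars2 and Wars2 were lost in at least 1 alternative. With Podofilox, where 26.2% of all tested genes rose and 20% fell, both genes rose in 3 pairs: isoleucine, threonine and tyrosine. The cytosolic gene alone rose in 7, and in 1, arginine, Rars rose and Rars2 fell. The Podofilox calls of Iars2, Rars2 and Tars2 were lost in at least 1 alternative. The isoleucine, threonine and arginine pairs rest on these calls. With AEG 3482, where 41.3% of all tested genes rose and 26.8% fell, both genes rose in 2 pairs. The cytosolic gene alone rose in 2, and in 1, tryptophan, Wars rose and Wars2 fell. In 2 further pairs the mitochondrial gene alone rose, in 2 it alone fell, in 1 the cytosolic gene, Lars, fell while Lars2 rose, and in 2 neither passed. The AEG 3482 calls of Hars2, Iars, Lars2 and Yars2 were lost in at least 1 alternative. All these counts describe the pairs and were not tested as such.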
